A study of Mus musculus with 3 samples.

Results

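Ependymal nuclei were a small group in single-nucleus RNA libraries of mouse hippocampus, with 57 members among 35322 nuclei. A nucleus was taken as ependymal when at least 4 of 9 marker genes (Foxj1, Ccdc153, Tmem212, Dnah11, Dnah12, Cfap54, Spag17, Rarres2 and Cfap299) had at least 1 UMI, a UMI being a counted RNA molecule. In addition, Slc17a7, Gad1, Gad2 and Plk5 (used as neuron genes) could sum to at most 1 UMI, Folr1, Kl and Clic6 (choroid plexus genes) to at most 1 UMI, and Csf1r and Mog (microglia and oligodendrocyte genes) had to be at 0. The doxorubicin plus ACY-1083 library held 25 members, the doxorubicin library 17 and the control library 15. These were 0.205% (95% exact Clopper-Pearson interval 0.133 to 0.303), 0.139% (0.0811 to 0.223) and 0.138% (0.0770 to 0.227) of the barcodes of each library, and the intervals overlapped. Each nucleus was chosen on its own counts, so the 9 marker genes are given below as a description only.

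The study, by its title, was on whether inhibiting HDAC6 reverses the cognitive harm of doxorubicin, a chemotherapy drug that traps topoisomerase II on DNA. ACY-1083 is an inhibitor of HDAC6, the enzyme that removes acetyl groups from alpha-tubulin. One library came from mice given doxorubicin and ACY-1083, one from mice given doxorubicin and one from control mice without treatment. Each was made from frozen hippocampi of both sides, pooled from 4 mice, whose nuclei were freed with Triton X-100 and run with the 10x 3′ version 3 chemistry, and the labels give no strain, sex, age, dose or schedule. With 1 library per group, a difference between libraries has no replicate check. The intervals given here cover counting error only, neither the spread between nuclei nor that between mice.

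Ependymal cells form the ciliated epithelium that lines the brain ventricles, next to the hippocampus. Each mature cell carries a tuft of motile cilia that beat together and move cerebrospinal fluid. A motile cilium is built on a microtubule axoneme, in which outer and inner dynein arms drive sliding, the nexin-dynein regulatory complex links and times the doublets, and radial spokes and a central apparatus pass on the signal. Intraflagellar transport carries the parts, and the transcription factors FOXJ1 and the RFX family, which binds a DNA motif called the X-box, switch the genes on.

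The promoters of axonemal genes are shown because their X-boxes are a feature that the choice of nuclei did not use. Promoter sequences from RefSeq (GRCm38.p6, 250 bases before to 50 after each start) were found for 111 of 141 genes, the 9 marker genes and 132 axonemal genes of 7 lists. The 14-base X-box, searched as GTTNCC and GGNAAC with 2 bases between them, occurred on either strand in promoters of 3 of the 111 genes (2.70%), against 0.529% of 27025 genes. One arm of it, GTTGCC, occurred on either strand in 50 of the 111 (45.0%), against 3821 of the 27025 genes (14.1%). An arm can lie within a 14-base X-box. The forkhead core GTAAACA occurred in 5.41% of the 111 genes, against 4.05% of all. Promoter GC content had a median of 55.3% in the axonemal and marker genes and 52.7% in all genes. Of the 20 genes that led the ependymal nuclei, described further on, 14 had a promoter sequence and 8 of these held an arm. The windows below run 5′ to 3′ on the strand of the gene, with the 14-base X-box or the arm in capitals. They are Ccdc151 (outer arm docking, chr9:22002635-22002694, minus strand), Cfap298 (dynein preassembly, chr16:90935001-90935060, minus), Iqca (nexin-dynein regulatory complex, chr1:90153500-90153559, minus) and the intraflagellar transport gene Ttc26 (chr6:38381464-38381523, plus), which held 14 bases, and the leading genes Cfap44 (chr16:44394739-44394798, plus), Cfap46 (central apparatus, chr7:139683816-139683875, minus) and Enkur (chr2:21205367-21205426, minus), which held an arm. A match is a description of these letters, not a shown binding site.
Ccdc151: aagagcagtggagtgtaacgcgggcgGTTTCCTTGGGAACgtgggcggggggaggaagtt
Cfap298: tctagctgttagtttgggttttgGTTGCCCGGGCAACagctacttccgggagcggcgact
Iqca: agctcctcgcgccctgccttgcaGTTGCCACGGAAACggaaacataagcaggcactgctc
Ttc26: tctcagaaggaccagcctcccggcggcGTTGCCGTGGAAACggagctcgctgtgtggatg
Cfap44: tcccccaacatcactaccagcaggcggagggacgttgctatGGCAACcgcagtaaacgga
Cfap46: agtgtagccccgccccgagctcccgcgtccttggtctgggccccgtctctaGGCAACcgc
Enkur: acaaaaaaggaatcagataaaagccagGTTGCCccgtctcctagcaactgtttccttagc

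The libraries differed in depth, which sets what could be seen in so few nuclei. They held 12192 barcodes (doxorubicin plus ACY-1083), 12221 (doxorubicin) and 10909 (control), with 62151258, 21458785 and 19175447 UMIs. The header of the doxorubicin plus ACY-1083 matrix names Cell Ranger 5.0.0 and the headers of the other matrices 4.0.0, and the counts of the deeper library followed the length of a gene's introns. Members had a median of 2386 UMIs (869 to 5153) in the doxorubicin plus ACY-1083 library, 1215 (687 to 4687) in doxorubicin and 1894 (827 to 2563) in control. All members of a library together held 62779, 35005 and 26191 UMIs in that order. A gene at 0 in one of these sums may therefore have a level of up to 3 UMIs of that sum.

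Among the 9 marker genes, Foxj1, the master regulator of motile cilia, had 12 UMIs in 11 of 25 members of the doxorubicin plus ACY-1083 library, 16 UMIs in 8 of 17 members of the doxorubicin library and 15 UMIs in 10 of 15 control members. Dnah12, an inner arm dynein heavy chain, had 132 UMIs in 24 members, 50 UMIs in 13 and 28 UMIs in 13 of the same libraries. Cfap299 parted the libraries: it had 151 UMIs in 24 members with doxorubicin plus ACY-1083, against 5 UMIs in 5 members with doxorubicin and 4 UMIs in 2 control members. Cfap299 has 471 kb of intron, the most of the 9, and its part in the choice of nuclei therefore differed between the libraries. Rarres2, a secreted protein gene with 0.438 kb of intron, had 19, 15 and 20 UMIs. The remaining 5 ranged from 29 UMIs (Ccdc153) to 99 UMIs (Cfap54) with doxorubicin plus ACY-1083, from 21 (Tmem212 and Dnah11) to 33 (Cfap54) with doxorubicin and from 11 (Ccdc153) to 20 (Tmem212) in control.

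The edge of the choice was thinly filled. Members with exactly 4 markers numbered 1, 5 and 3 (doxorubicin plus ACY-1083, doxorubicin, control), with medians of 40, 17 and 24 axonemal genes detected. Nuclei with exactly 3 markers that met the other conditions numbered 6, 8 and 8, with medians of 10, 14.5 and 17 axonemal genes detected. The 6 with doxorubicin plus ACY-1083 had a median of 33.5 UMIs of neuron genes, against 0.5 in each of the other libraries. Of these 6, 4 had 20 to 49 UMIs of the neuron list, and the others had 1 each but 34 and 22 UMIs of the choroid plexus list. Another 12 nuclei had at least 4 markers but failed another condition, 9 with doxorubicin plus ACY-1083 (neuron or choroid plexus genes) and 3 with doxorubicin, of which 1 failed only on Csf1r and Mog.

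Axonemal genes that the choice did not use set the members apart from other nuclei of their libraries. Of 132 such genes, members had a median of 49 detected (20 to 82) with doxorubicin plus ACY-1083, 27 (14 to 71) with doxorubicin and 30 (13 to 58) in control. Other nuclei had medians of 5, 2 and 2, and the highest of them reached 62, 39 and 26, so the ranges overlapped. A nucleus at 62 had 8 markers and a nucleus at 39 had 5, but each failed another condition. A control nucleus at 26 had 3 markers. Other nuclei with at least 20 axonemal genes numbered 293, 14 and 8. Astrocyte nuclei, chosen by their own markers, had medians of 3, 1 and 1, and choroid plexus nuclei, the other ventricular epithelium, had 26, 10 and 11. The members thus carried ciliary genes beyond the markers, although a gene that travels with the markers in ciliated cells is not independent of them. These medians describe the members and are no test of the name ependymal. Thinned to 1000 UMIs each, which left out 1, 5 and 1 members, members had medians of 29, 22.5 and 22.5, against 1, 1 and 1 in other nuclei and 9, 8 and 8 in choroid plexus nuclei.

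**Figure D1:**
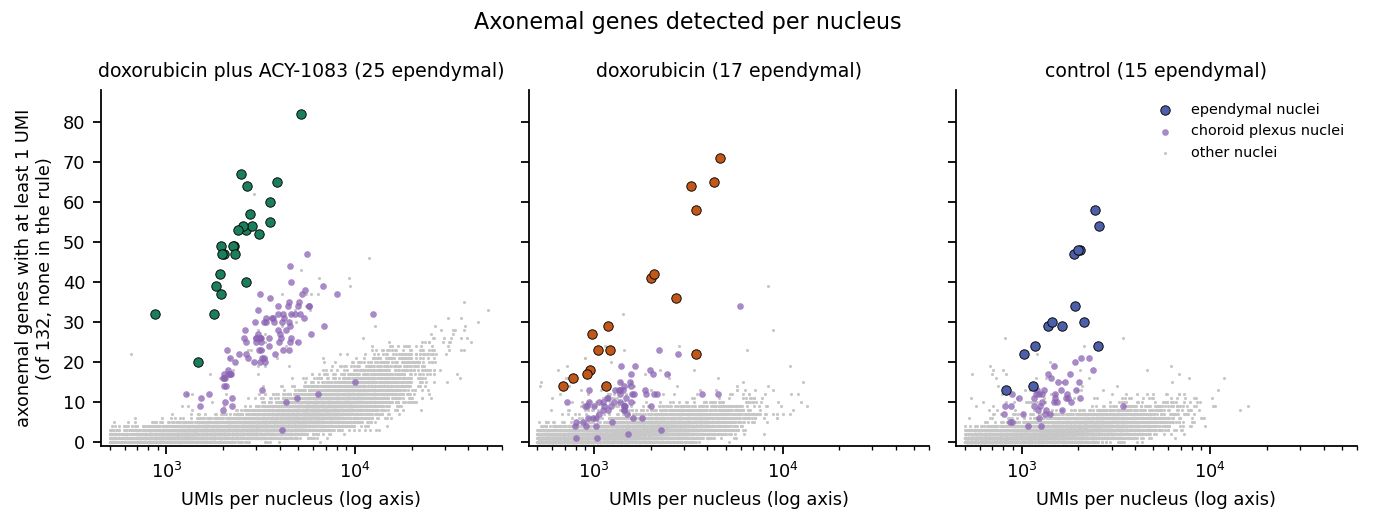
Axonemal genes detected (at least 1 UMI, of 132 genes, none among the markers that chose the nuclei) against UMIs per nucleus on a log axis, with 1 point per nucleus and 1 panel per library. Ependymal nuclei lie above most other nuclei of like depth, with medians of 49, 27 and 30 genes, choroid plexus nuclei lie between with 26, 10 and 11, and some other nuclei reach into the ependymal range.

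As a share of all UMIs the order was the same. Axonemal transcripts made up 4.09% of members' UMIs with doxorubicin plus ACY-1083, 3.01% with doxorubicin and 2.94% in control. Choroid plexus nuclei had 1.16%, 0.907% and 1.07%, and the sum of all other nuclei 0.164%, 0.177% and 0.171%. Single members spread from 1.77% to 5.82% (median 4.08%) with doxorubicin plus ACY-1083, from 0.860% to 4.25% (median 2.76%) with doxorubicin and from 1.30% to 4.14% (median 2.67%) in control. Every member was thus above the median of other nuclei, which was 0.153%, 0.159% and 0.152%. The ranges overlapped by share too. In the same order, 10, 111 and 46 other nuclei were at or above the lowest member, and the highest of them reached 4.79%, 3.66% and 4.17%. All 7 axonemal lists were detected in 21 of 25, 11 of 17 and 11 of 15 members, and the member with fewest had 4, 5 and 5 lists.

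Genes of neurons were low in the members, while some lists of other cell types were above their level in other nuclei. The neuron list summed to 48, 25 and 20 UMIs (doxorubicin plus ACY-1083, doxorubicin, control), or 765, 714 and 764 CPM (UMIs scaled to 1000000 per group), against 4827, 3002 and 3097 CPM in other nuclei. It holds Slc17a7, Gad1 and Gad2, which the choice of nuclei capped, so its low level was partly set in advance. Csf1r in the microglia list and Mog in the oligodendrocyte list were likewise held at 0 by the choice. The endothelial list summed to 2, 0 and 0 UMIs, the oligodendrocyte precursor list to 1, 2 and 0, the microglia list to 10, 3 and 3, the fibroblast list to 4, 3 and 2 and the tanycyte list to 6, 4 and 4. Rax, a defining gene of tanycytes, the neighbouring cells of the ventricle wall, was at 0 in all members. The fibroblast list stood at 63.7, 85.7 and 76.4 CPM, above the 28.3, 43.6 and 40.5 CPM of other nuclei. The astrocyte list summed to 96, 96 and 52 UMIs, or 1529, 2742 and 1985 CPM, against 892, 1243 and 1158 CPM in other nuclei and 11215, 14109 and 14888 CPM in astrocyte nuclei. The oligodendrocyte list had 57, 9 and 16 UMIs, or 908, 257 and 611 CPM, against 847, 1031 and 1025 CPM in other nuclei. The pericyte list had 2, 13 and 2 UMIs, or 31.9, 371 and 76.4 CPM, against 21.5, 47.0 and 38.9 CPM. Members with at least 10 UMIs of the astrocyte list numbered 1, 2 and 1, with 11 UMIs in the first library, 38 and 15 with doxorubicin and 16 in control. The doxorubicin member with 38 also had 12 of the 13 pericyte UMIs, and 2 members with doxorubicin plus ACY-1083 had 19 and 15 oligodendrocyte UMIs. What these other transcripts add to the comparisons below was not tested beyond leaving out the last 3 members. Ttr, the choroid plexus transcript that spreads as free RNA, had 86, 78 and 29 UMIs in members, or 1370, 2228 and 1107 CPM. Other nuclei had 821, 2988 and 1313 CPM of Ttr, so members were above them with doxorubicin plus ACY-1083 and below them in the other libraries. None of the members lay among the 5% highest doublet scores of their library, and 0 of their barcodes occurred in another library, although the libraries shared 46, 29 and 42 barcodes in pairs.

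Genes of the ciliary axoneme led the ependymal profile. The 20 leading genes, outside the markers, were those with the highest fold over the other nuclei in the library where that fold was lowest, 20 CPM being added to both levels. Since the nuclei were chosen on ciliary genes, these folds describe the members and carry no test. Across 2940 genes with at least 10 UMIs over all members, 243 (8.27%) were at least 4-fold higher in members than in other nuclei in each of the 3 libraries and 15 (0.51%) at least 4-fold lower. That bound was set on members alone and leaves out many genes that are low in them. Counts of higher and lower genes, here and against choroid plexus and astrocyte nuclei, therefore cannot be set against each other.

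Dnah6, an inner arm dynein heavy chain (ENSMUSG00000052861, chromosome 6, 73017606 to 73221651, GRCm38), led by that measure. It had 89 UMIs with doxorubicin plus ACY-1083, 44 with doxorubicin and 23 in control members, or 1418, 1257 and 878 CPM, against 6.14, 5.74 and 7.26 CPM in other nuclei. These were folds of 55.0, 49.6 and 32.9. Cfap65, a gene of ciliary and sperm flagellar motility (chromosome 1, 74902071 to 74935599), had 57, 85 and 52 UMIs, or 908, 2428 and 1985 CPM, and folds of 32.2, 69.1 and 52.1. Spef2, a central apparatus protein, had folds of 29.2, 38.2 and 31.4. Each of these genes was far above other nuclei in all 3 libraries, but the order of the libraries differed from gene to gene.

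Further leading genes came from the same structures or have less defined roles. Ak7, an adenylate kinase of motile cilia, had folds of 40.8, 25.5 and 29.8 (doxorubicin plus ACY-1083, doxorubicin, control). Cfap43, Cfap44, Cfap46 and Cfap70 belong to the same class of cilia and flagella associated proteins, and Cfap43 had folds of 39.3, 24.1 and 27.9. Enkur, a microtubule inner protein, had 20.2, 28.9 and 33.7, and Ttc21a, a protein of intraflagellar transport, 26.4, 28.2 and 35.7. Rgs22, a regulator of G protein signalling, had 43.0, 41.4 and 27.8, and the cadherin-related genes Cdhr3 and Cdhr4 had 33.3, 23.3 and 22 and 21.8, 36.7 and 23.4. Lrrc36 had 42.0, 27.7 and 30.4 and Dthd1 22.1, 33.9 and 36.3. Ccdc114, an outer arm docking protein, Frmpd2, Rsph10b, Ak9 and 2010001K21Rik completed the 20.

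**Figure D2:**
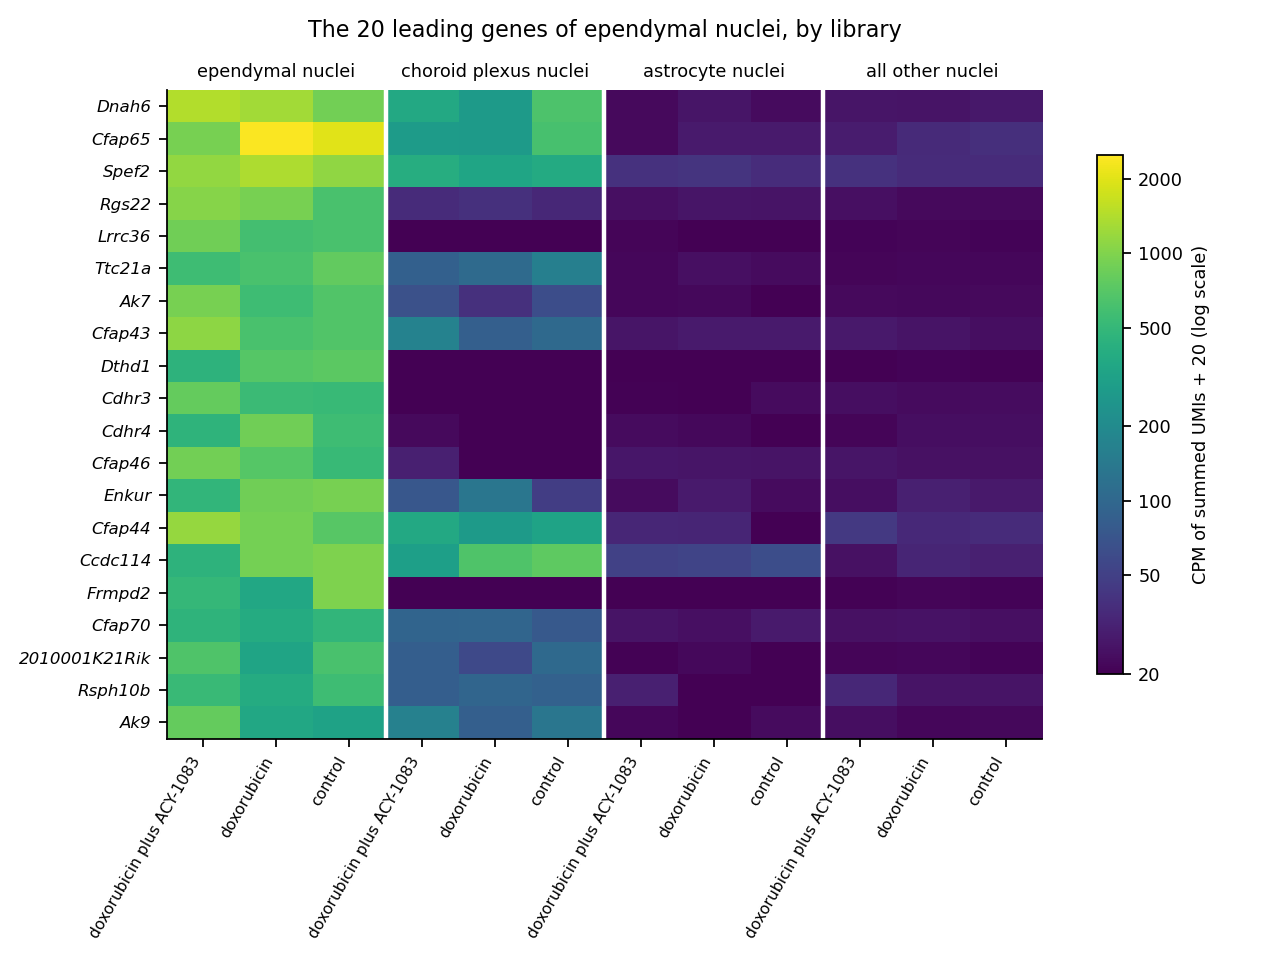
CPM of summed UMIs plus 20, on a log colour scale, for the 20 leading genes in ependymal, choroid plexus, astrocyte and other nuclei of the 3 libraries. Ependymal columns are the highest for most genes, for example Dnah6 at 1418, 1257 and 878 CPM, while Ccdc114 is at near the same level in choroid plexus nuclei.

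The dynein arms were taken first. Of 16 outer arm genes, 11 had at least 10 UMIs over all members, and 7 of the 11 were at least 4-fold higher than in other nuclei in every library. Dnah9, an outer arm heavy chain, had folds of 9.79, 8.55 and 7.71, and Dnah5, its partner heavy chain, 23.3, 7.55 and 21.9 (doxorubicin plus ACY-1083, doxorubicin, control). Of 21 inner arm and docking genes, 18 had enough UMIs and 13 of these passed, among them Dnah7b at 23.3, 14.3 and 14.1 and Dnah3 at 33.4, 17.8 and 11.4. Both shares were above the 8.27% of all genes, but 2 dynein heavy chains were among the markers that chose the nuclei.

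The structures that steer the arms were also present. In the nexin-dynein regulatory complex, 5 of 8 genes with enough UMIs (10 listed) passed 4-fold in every library, in the radial spokes 8 of 13 (19 listed) and in the central apparatus 17 of 19 (19 listed). Hydin, a giant central apparatus protein whose loss causes hydrocephalus in mice, had 65 UMIs with doxorubicin plus ACY-1083, 9 with doxorubicin and 13 in control members, with folds of 46.2, 12.6 and 24.2. Spag16, also of the central apparatus, had 172, 7 and 3 UMIs and folds of 72.9, 9.81 and 6.21. Cfap61, a radial spoke protein, had folds of 45.0, 8.61 and 7.82. For Spag16 and Cfap61 the doxorubicin plus ACY-1083 library stood apart from the others by fold. Between doxorubicin plus ACY-1083 and doxorubicin, other nuclei also had CPM ratios of 7.36 (Spag16) and 2.01 (Cfap61). Relative to other nuclei, the ratio in members was 1.76 for Spag16 (95% counting interval 0.805 to 3.84) and 2.94 for Cfap61 (1.25 to 6.96). Of 19 microtubule inner and surface genes with enough UMIs (30 listed) 8 passed, and of 7 dynein preassembly genes (17 listed) 3 did. Together, 61 of 95 axonemal genes passed, and 124 of the 132 had at least 1 UMI in a member.

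Genes that build cilia but that many cell types also use were less set apart. Of 22 intraflagellar transport genes with enough UMIs (28 listed), only Ttc21a passed 4-fold in every library. Of 9 ciliogenesis regulators (23 listed), 3 passed, namely Rfx2, Ccdc78 and Mlf1. Rfx2, an X-box factor, had 22, 11 and 5 UMIs (doxorubicin plus ACY-1083, doxorubicin, control) and folds of 13.8, 13.5 and 8.84. Rfx3, another X-box factor, had 50, 6 and 3 UMIs and folds of 1.61, 1.81 and 1.25, and Myb, a regulator of multiciliated cell formation, had 4, 9 and 6 UMIs and folds of 3.91, 11.6 and 10.6, short of the bound in the first library. Mcidas and Ccno, which act in cells that are forming their cilia, were at 0 in every member, and Gmnc had 4, 3 and 2 UMIs.

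Among genes that modify tubulin, 4 of 11 with enough UMIs (24 listed) passed. The tubulin ligases Ttll3, which adds glycine, Ttll6, which adds glutamate, and Ttll8, which adds glycine, had folds of 13.0, 21.6 and 32.1, of 11.9, 10.7 and 21.4, and of 31.0, 9.29 and 4.66 (doxorubicin plus ACY-1083, doxorubicin, control). None of 3 tubulin genes with enough UMIs passed. Hdac6, the enzyme that ACY-1083 inhibits, had 1 UMI in the members of each library, and Atat1, which acetylates alpha-tubulin, had 6, 1 and 2 UMIs. A difference in either enzyme was not detectable at this depth.

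A mixed list of ependymal and glial genes, called surface and secreted here although not all its genes are such, also marked the members. Of 31 with enough UMIs (39 listed), 20 were at least 4-fold higher in every library, against 8.27% of all genes. Odf3b, of the outer dense fibre family, had 13, 18 and 27 UMIs (doxorubicin plus ACY-1083, doxorubicin, control) and folds of 11.1, 24 and 48.6. Tm4sf1, a membrane protein of the tetraspanin-like family, had folds of 7.30, 15.1 and 17.7 and Fam216b of 16.1, 16.3 and 14.2. Nnat, a small membrane protein, had folds of 4.82, 10.5 and 11.1. Genes shared with other glia were closer to the rest: Vim, an intermediate filament, had 4.61, 3.51 and 5.54, Sox9, a glial transcription factor, 5.67, 4.40 and 7.46, Clu 4.94, 3.50 and 4.12 and Ecrg4, a secreted product of ventricular epithelia, 4.51, 2.21 and 3.18. No gene of oxidative phosphorylation (34 with enough UMIs) or of the cytosolic ribosome (64) was 4-fold higher in every library.

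Against choroid plexus nuclei, which are also ciliated epithelium, fewer genes stood apart. In the 2940 genes, 118 (4.01%) were at least 4-fold higher in members in every library, including 16 of 95 axonemal genes, and 9 (0.306%) at least 4-fold lower. The 5 leading genes were Dthd1, Cfap46, Lrrc36, Cdhr3 and Adamts20, a secreted metalloprotease. Adamts20 had 1418, 657 and 687 CPM in members (doxorubicin plus ACY-1083, doxorubicin, control) and 0 UMIs in choroid plexus nuclei of each library. Lrrc36 and Cdhr3 were also at 0 there. Dnah6 was 3.92-, 4.61- and 1.37-fold higher in members than in choroid plexus nuclei, and Ccdc114 1.46-, 1.38- and 1.30-fold. Ttr was lower in members, with 1370, 2228 and 1107 CPM, against 7545, 29629 and 16814 CPM in choroid plexus nuclei, which were chosen by choroid genes.

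Against astrocyte nuclei, the related glia, 209 of the genes (7.11%) were at least 4-fold higher in every library, including 63 of 95 axonemal genes, and 16 (0.544%) at least 4-fold lower. Cfap65, Dnah6, Lrrc36, Spef2 and Cfap44 led. Slc1a2, the main astrocyte glutamate transporter, was lower, with 319, 1257 and 458 CPM in members, against 5826, 7471 and 7901 CPM in astrocyte nuclei (doxorubicin plus ACY-1083, doxorubicin, control). Of the 44 Slc1a2 UMIs with doxorubicin, 17 were left without the member that carried astrocyte and pericyte genes.

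Doxorubicin was then set against control within ependymal nuclei, to ask how the treatment alone relates to their transcripts. Few genes were apart. Genes with at least 20 UMIs over both libraries numbered 324, and a gene was counted as past the fold when its CPM ratio was at least 1.5 in either direction with the whole 95% counting interval on that side of 1. Of the 324, 20 (6.17%) were higher and 9 (2.78%) lower with doxorubicin. With each ratio divided by that of other nuclei, 19 (5.86%) were higher and 19 (5.86%) lower. Over 1079 genes with at least 10 UMIs, the median log2 ratio was 0.03, and -0.02 in other nuclei.

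Appl2, an adaptor of early endosomes (chromosome 10, 83600033 to 83648738), had the ratio farthest from 1 by its nearer bound. It had 19 UMIs in 10 of 17 doxorubicin members, against 1 UMI in 1 of 15 control members, a ratio of 14.2 (2.26 to 591). With doxorubicin plus ACY-1083 it had 12 UMIs in 9 of 25 members, and the levels were 191, 543 and 38.2 CPM (doxorubicin plus ACY-1083, doxorubicin, control). Other nuclei had an Appl2 ratio of 1.07 between doxorubicin and control. Endog, a mitochondrial nuclease (chromosome 2, 30171493 to 30174069), had 30 UMIs in 10 doxorubicin members, against 7 UMIs in 5 control members, a ratio of 3.21 (1.38 to 8.65). No single member held more than 5 of the Endog UMIs.

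RNA-binding and signalling genes were among the 20 too. Hnrnpk, which binds and processes RNA, had 18 UMIs with doxorubicin, against 3 in control, a ratio of 4.49 (1.31 to 23.8). Hnrnph1, a splicing factor, had 23 against 6 UMIs (2.87) and Ddx17, an RNA helicase, 30 against 8 (2.81). Csnk1a1, a casein kinase of the Wnt pathway, had 27 UMIs in 12 members with doxorubicin, against 6 UMIs in 6 control members (3.37). In other nuclei the ratios of these 4 genes lay between 0.884 (Hnrnph1) and 1.09 (Ddx17).

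Of ciliary genes, Ift81, which binds tubulin for transport along the axoneme, had 20 UMIs with doxorubicin, against 5 in control, a ratio of 2.99 (1.09 to 10.2). Dnah10, an inner arm heavy chain, had the same UMIs and ratio. Casc1, an axonemal dynein-associated gene, had 17 against 4 UMIs. Also among the 20 were Tcf25, R3hdm1, Etnk1, Lrriq1, Slc1a2, Ttr and 4 predicted genes. Slc1a2 had 44 UMIs with doxorubicin, against 12 in control. Without the doxorubicin member that carried astrocyte and pericyte genes, it had 17 against 12. Ttr had 78 against 29 UMIs (2.01), and other nuclei also had more, 2988 CPM with doxorubicin and 1313 CPM in control.

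Lower with doxorubicin was Dnah5, the outer arm heavy chain (chromosome 15, 28203752 to 28472052), with 6 UMIs in 5 members, against 14 UMIs in 9 control members, a ratio of 0.321 (0.101 to 0.888). Frmpd2, a scaffold protein with a PDZ domain and a leading gene of the members, had 12 against 25 UMIs, a ratio of 0.359 (0.164 to 0.742). Odf3b had 18 against 27 UMIs, a ratio of 0.499 (0.259 to 0.940), and Ccdc88c, a Wnt pathway protein whose loss is linked to hydrocephalus, 8 against 18 UMIs (0.333, 0.125 to 0.804). Gria2, Meg3, Rpl19 and D430042O09Rik were also past the fold. Dnah5 stood at 733 CPM with doxorubicin plus ACY-1083, 171 with doxorubicin and 534 in control, and Frmpd2 at 478, 343 and 954. Between doxorubicin plus ACY-1083 and doxorubicin, other nuclei also had a Dnah5 ratio of 2.30. Relative to other nuclei, the Dnah5 ratio in members was 1.74 (0.748 to 4.04), which was not past the fold.

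**Figure D3:**
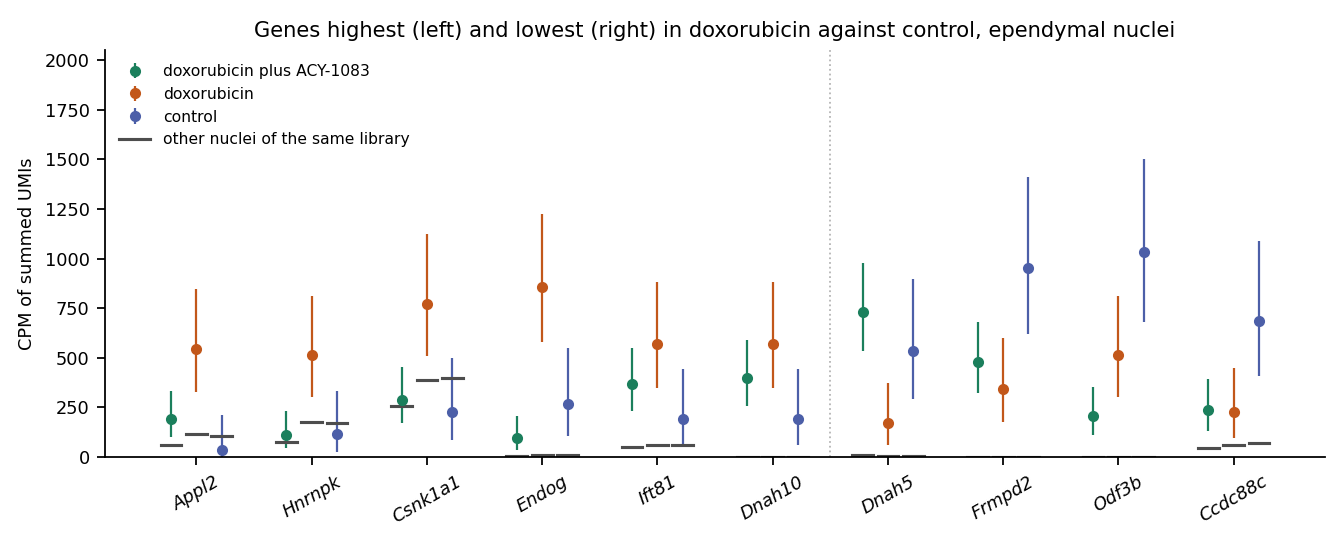
CPM of summed UMIs in ependymal nuclei with 95% exact Poisson intervals for genes past the fold in doxorubicin against control, higher on the left and lower on the right, with short bars for other nuclei of the same library. Appl2 lies at 191, 543 and 38.2 CPM and Dnah5 at 733, 171 and 534 CPM (doxorubicin plus ACY-1083, doxorubicin, control), and many intervals of neighbouring libraries overlap. Dnah5 was also higher in other nuclei with doxorubicin plus ACY-1083 than with doxorubicin, at a ratio of 2.30.

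Axonemal genes as a group lay near a ratio of 1 between doxorubicin and control. Of 58 axonemal genes with at least 10 UMIs, 28 were above and 30 below a ratio of 1, where 51.0% of all 1079 genes were above and 49.0% below. They had a median log2 ratio of -0.06 (order-statistic interval -0.20 to 0.23), against 0.06 for the same genes in other nuclei. Of 30 with at least 20 UMIs, 1 was past the fold as higher (Dnah10) and 1 as lower (Dnah5), near the shares over all genes. Relative to other nuclei, Dnah6 was past it as higher and Dnah5 and Hydin as lower. The summed axonemal level was 1.02 times that of control (0.932 to 1.12), and the settings tried moved it to between 0.913 and 1.13, on both sides of 1. The outer arm list had a median of -0.26 (2 of 7 genes above), the inner arm list 0.11 (7 of 13), the nexin-dynein regulatory complex 0.34 (5 of 6), the radial spokes 0.03 (5 of 9) and the central apparatus -0.19 (6 of 16). Intraflagellar transport had 0.14 with 5 of 10 genes above.

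Outside the axoneme, lists were small or near 0. The mixed surface and secreted list had a median of -0.07 with 10 of 23 genes above, and 3 tubulin genes were all below, with a median of -0.42. Cytosolic ribosomal protein genes had -0.20 (-0.42 to 0.27) with 19 of 44 above, against 0.29 in other nuclei, and oxidative phosphorylation 0.11 with 8 of 12 above, against 0.41 in other nuclei. Mitochondrially encoded transcripts summed to 24 UMIs with doxorubicin, against 57 in control, a ratio of 0.315 (0.187 to 0.516), where other nuclei had 1.26. Of the 57, 22 came from 1 control member, and without it the ratio was 0.491 (0.279 to 0.849).

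Doxorubicin plus ACY-1083 was set against doxorubicin, which the study used to ask what the HDAC6 inhibitor adds. This comparison shares the doxorubicin library with the one above, so the values stand side by side and their likeness is not a result. By CPM ratio, 269 of 853 genes with at least 20 UMIs (31.5%) were past the fold as higher and 130 (15.2%) as lower. The ratios followed intron length: the median log2 ratio was -0.84 for genes with under 10 kb of intron, -0.11 from 10 to 100 kb and 1.24 at 100 kb or more. Other nuclei had -1.43, -0.31 and 1.24, so most of these genes differed between the libraries outside ependymal nuclei as well. The Cell Ranger version and the treatment cannot be told apart here.

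Each gene's ratio in members was therefore divided by its ratio in other nuclei. By this relative ratio, 65 of 853 genes (7.62%) were past the fold as higher and 45 (5.28%) as lower. A relative ratio still mixes treatment with whatever the counting did differently in ependymal nuclei. The other nuclei also include those with at least 4 markers that failed another condition, 9 with doxorubicin plus ACY-1083 and 3 with doxorubicin. For ciliary genes, the ratio in other nuclei is therefore not a measure of counting alone.

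Ciliary genes stood on both sides. Ccdc180, a coiled-coil gene outside the axonemal lists, had 24 UMIs in 14 members with doxorubicin plus ACY-1083, against 9 UMIs in 6 members with doxorubicin, a ratio of 1.49 where other nuclei had 0.121, and a relative ratio of 11.4 (3.71 to 35). The Ccdc180 ratio in members was itself under 1.5, so its relative ratio came mostly from the low ratio in other nuclei. Dnah7a, an inner arm heavy chain, had 36 against 3 UMIs and a relative ratio of 9.66 (3.14 to 29.7). Dnah7a reads could be split with its near copies Dnah7b and Dnah7c, so its value is uncertain. Iqca had 24 against 2 UMIs and a relative ratio of 8.0 (1.99 to 32.2). In control members, Ccdc180, Dnah7a and Iqca had 8, 7 and 3 UMIs. Among 60 axonemal genes tested, Dnah7a, Daw1, Iqca, Cfap61, Dnaic1, Dnah3, Hydin and Nme5 were past the fold as higher in the relative ratio and Rp1, Cfap65, Cfap74 and Lrrc23 as lower, that is 8 and 4 genes of the 60. Over all 853 genes the shares were 7.62% higher and 5.28% lower, and the difference from these shares was not tested.

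Outside the axoneme, the marker gene Tmem212, a membrane protein of ciliated cells, had 79 against 21 UMIs, a ratio of 2.10 where other nuclei had 0.405, and a relative ratio of 5.10 (2.98 to 8.72). Tmem212 took part in choosing the nuclei, so this is a description. Tmem108 had 37 UMIs with doxorubicin plus ACY-1083, against 2 with doxorubicin, and the relative ratio was 6.21. Shank2, a postsynaptic scaffold gene, had 66 against 2 UMIs (6.14). Several of the genes with the highest relative ratios rest on 2 or 3 doxorubicin UMIs.

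At the low end, Rp1, a ciliary microtubule protein, had 12 UMIs with doxorubicin plus ACY-1083, against 8 with doxorubicin, a ratio of 0.836 where other nuclei had 8.28, and a relative ratio of 0.122 (0.0262 to 0.572). Those other-nuclei counts are small too, 48 UMIs with doxorubicin plus ACY-1083 and 2 with doxorubicin. Itpr1, an intracellular calcium channel, had 10 against 15 UMIs (relative ratio 0.200) and Fgfr2, a growth factor receptor, 42 against 4 (0.241), since other nuclei had a ratio of 21.9. Nnat had 58 against 49 UMIs, a ratio of 0.660 where other nuclei had 1.53, and a relative ratio of 0.432 (0.295 to 0.632).

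**Figure D4:**
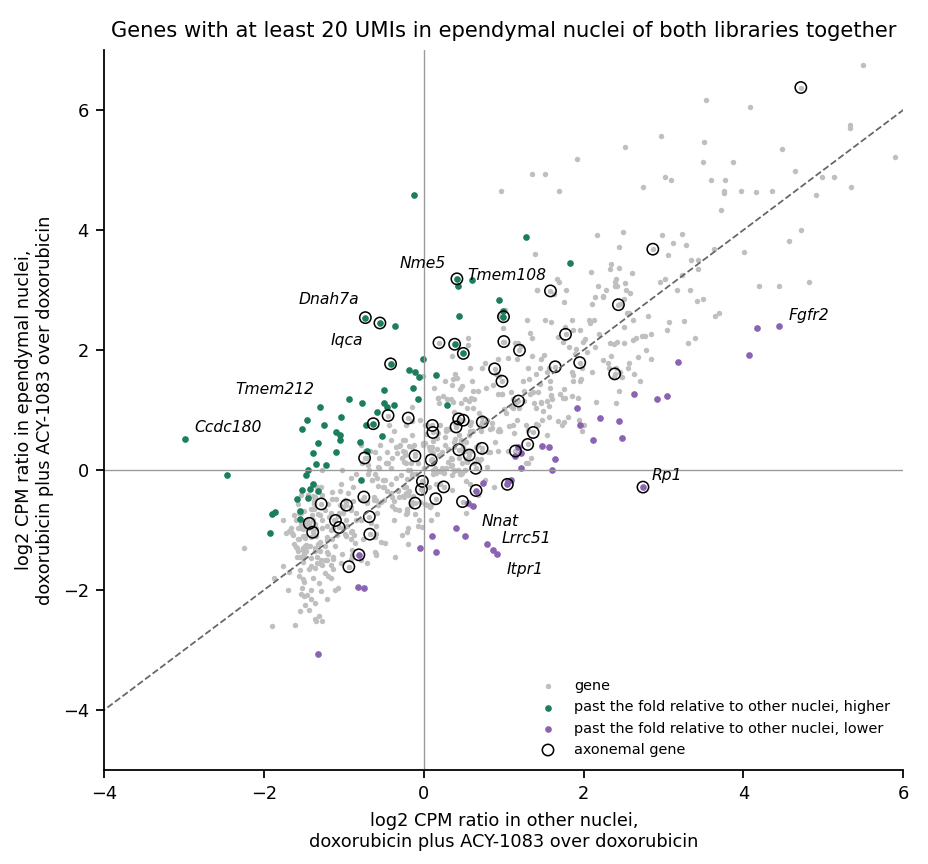
Log2 CPM ratio of doxorubicin plus ACY-1083 over doxorubicin in ependymal nuclei (vertical) against the same ratio in other nuclei (horizontal), with 1 point per gene of at least 20 UMIs, colours for the 65 genes past the fold as higher and the 45 past it as lower relative to other nuclei, and rings for axonemal genes. Most genes follow the diagonal, and axonemal genes lie on both sides of it.

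By list, 88 axonemal genes with at least 10 UMIs had a median log2 ratio of 0.26 (-0.11 to 0.74), 51 of them above and 37 below a ratio of 1, where 55.6% of all genes were above and 44.4% below. The median was 0.20 for the same genes in other nuclei and 0.22 for all genes in members. Their summed level was 1.36 times that of doxorubicin (1.27 to 1.46), where other nuclei had 0.926. Adding nuclei with exactly 3 markers, among them the 6 with neuron or choroid plexus genes, turned this round, to 0.880. The summed ratio thus depends on whether nuclei with exactly 3 markers are included. The largest of the 6 had 10860 UMIs, against 5153 in the largest member of that library. Cytosolic ribosomal protein genes had a median of -0.84, with 9 of 51 above a ratio of 1, against -1.49 in other nuclei, and oxidative phosphorylation genes -0.60, with 4 of 21 above, against -1.37. Over all 2281 genes the members' log2 ratio exceeded that of other nuclei by a median of 0.09.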

How the data were processed

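The values used are whole-number UMI counts, deposited by the authors as 1 matrix per library and not normalized. Per the file headers they were made with Cell Ranger 5.0.0 (doxorubicin plus ACY-1083) and 4.0.0 (doxorubicin and control), while version 6.0.0 and the mm10 build stand in the submitters' processing notes. How intronic reads were treated is not given in the sources at hand. Every barcode was kept. Doublets were scored with Scrublet in scanpy 1.11.5. Its automatic threshold marked 346, 2 and 6 barcodes (doxorubicin plus ACY-1083, doxorubicin, control), so the highest 5% of scores per library were looked at instead, and no nucleus was removed.

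UMIs of members were summed per library and scaled to CPM, with exact Poisson intervals. Ratios have exact conditional Clopper-Pearson 95% intervals, relative ratios log-scale counting intervals after adding 0.5 UMIs. Choroid plexus nuclei had at least 3 of 7, and astrocyte nuclei at least 4 of 8, own markers. A list median uses genes with at least 10 UMIs and 0.5 UMIs added before log2. Gene positions and introns came from GENCODE vM21, which matched 32235 of 32285 genes.

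Genes were named by size: the 9 marker genes; the 20 leading genes with at least 50 UMIs; the 5 highest and lowest against choroid plexus and astrocyte nuclei; in each comparison of libraries the 10 highest and 10 lowest by the interval bound nearest to 1; the 2 most extreme of each list; and Hdac6, Atat1, Foxj1 and Rfx3. Further genes counted as past the fold were named after their values were seen, and a few genes are not reported here. The members and lists were chosen with earlier results of these data known. There was 1 library per group, so no test between groups was made. Alternatives used TMM scaling (edgeR 4.0.16, R 4.3.3). Other steps used Python 3.11.15, numpy 2.4.6, scipy 1.17.1, pandas 2.3.3 and matplotlib 3.10.9, and the scripts were checked on simulated data.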

Additional observations from a re-analysis of the deposited data

How the results depend on the processing

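No paired analysis was possible because there was 1 library per group, and no library could be left out. Of the recomputed shares, counts, medians and sums, 582 kept their direction and size, 47 moved and 1 reversed, and of the values of single genes 471 kept them and 9 moved. For those that moved or reversed, the cause was not tested unless the setting shows it. With at least 3 markers, genes lower with doxorubicin against control numbered 14. Between doxorubicin plus ACY-1083 and doxorubicin, 460 were higher and 252 lower by CPM ratio and 139 lower by relative ratio, medians were -0.24 (axonemal), -0.86 (microtubule inner and surface), -0.66 (intraflagellar transport), -1.76 (tubulin), -0.87 (surface and secreted) and -1.33 (ribosomal), and the summed axonemal ratio was 0.880, the reverse of 1.36. With at least 5 markers, 10 genes were higher with doxorubicin against control and the tubulin median was -0.23. With at least 6, these were 8 and -0.13, the summed axonemal ratio 0.930 and the mitochondrial ratio 0.538. The share with doxorubicin was then 0.0736%, and between doxorubicin plus ACY-1083 and doxorubicin 82 genes were lower, with medians of -1.91 (tubulin), -0.25 (oxidative phosphorylation) and -0.41 (ribosomal). Requiring 2 of the 4 short-intron markers gave doxorubicin against control medians of -0.15 (tubulin) and -0.34 (axonemal) and a summed axonemal ratio of 0.913.

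In doxorubicin against control, the tubulin median was -0.57 with at most 3 UMIs of Rbfox3, Slc17a6 and Syt1, -0.54 without the 3 members with at least 10 oligodendrocyte or pericyte UMIs (chosen after seeing the data, as was leaving out the control member with most mitochondrial UMIs), -0.28 with TMM scaling, -0.80 with nuclei weighted equally and -0.50 without the largest nucleus of each library. TMM scaling shifted log2 ratios by 0.14 and 0.30 (doxorubicin against control, doxorubicin plus ACY-1083 against doxorubicin), gave summed axonemal ratios of 1.13 and 1.68, and in the second left 73 lower and an oxidative phosphorylation median of -0.30. Totals without Malat1 and mitochondrial genes gave 1.21 and a ribosomal median of -1.01 there. Equal weights gave 18 lower in doxorubicin against control. In doxorubicin plus ACY-1083 against doxorubicin, they gave 100 higher by relative ratio and a ribosomal median of -1.0. Without the largest nuclei, 13 were higher with doxorubicin against control. At a minimum of 50 UMIs, 3 were higher and 1 lower, and in doxorubicin plus ACY-1083 against doxorubicin 77 and 40, and 20 and 10 by relative ratio. Thinned nuclei had medians of 29 axonemal genes with doxorubicin plus ACY-1083 and 22.5 in control, against 49 and 30 unthinned.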

Other observations

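Other gene groups were measured in the members with few UMIs. Clock genes in doxorubicin against control were all 4 below a ratio of 1, where 49.0% of all 1079 genes were below. Their median log2 ratio was -0.78, and 0.00 in other nuclei. With 4 genes, its order-statistic interval (-1.34 to -0.29) is only the range from the lowest to the highest gene. The whole clock list summed to 51 UMIs with doxorubicin, against 53 in control, a ratio of 0.720 (0.480 to 1.08) whose interval covers 1. Metallothionein and antioxidant genes had 3 of 7 above and a median of -0.27. Junction and polarity genes summed to 49 UMIs with doxorubicin, against 62 in control, a ratio of 0.591 (0.398 to 0.874). The p53 target list summed to 39, 23 and 14 UMIs and the immediate early list to 8, 16 and 18 (doxorubicin plus ACY-1083, doxorubicin, control), too few for a list median. All were chosen with earlier results known, and none was tested.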
